A study of Mus musculus with 48 samples.

Results

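The genes of the eukaryotic translation initiation factors (eIFs) were followed in single mouse embryos at the 2-cell stage. They were chosen by name: every gene of the deposited count table whose symbol begins with Eif and a digit from 1 to 6, leaving out the 10 entries that the symbol marks as pseudogenes. That gave 56 of 55421 genes, and all 56 were looked for in each of the 29 libraries with at least 100000 counts. Of the 56, 52 had enough counts for a test and 31 had a count in every one of the 29 libraries.

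The study compared embryos labelled WT with embryos labelled K49A, in which alanine stands in place of a lysine of protamine 1 (Prm1), the small basic protein that replaces histones in the sperm head. Both groups were C57BL6 2-cell embryos taken 26 to 28 hours after fertilization, 1 embryo to a well, and were copied with the Smart-seq2 method. The labels leave out the parent that carried the substitution, the litters, and the meaning of "dot" in 3 of the K49A titles. All WT wells lay in plate rows 1 to 4 and all K49A wells in rows 5 to 8, and the effects of row and group cannot be told apart.

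Each group had 24 embryos, of which 12 WT and 17 K49A libraries held at least 100000 counts; the other 19 held at most 39135 and were left out. The WT libraries used held 421301 to 5309505 counts and the K49A libraries 105627 to 4947276. Of the 29, 24 were deep, with at least 1000000 counts and 12000 genes detected: 10 WT and 14 K49A. An embryo was taken as 1 replicate; since littermates are not marked, p-values stand for the spread among embryos that may share parents. A library pools all cells of an embryo, so that fewer cells with a transcript and less of it per cell cannot be told apart. The substitution leaves the level of Prm1, the protamine 1 gene, without use as a check of the labels, and its mRNA had at most 3 counts in any library. Markers of the 2-cell stage and of the oocyte were present, with all 5 and all 6 of them tested. Of 12 cumulus and granulosa cell markers 3 passed the count filter, and their sum lay at 0 to 104 CPM (WT) and at 24.2 to 248 CPM (K49A). The blood genes Hbb-bs and Hbb-bt had no count in any library. The 7 blood markers summed to 10.9, 20.2 and 54.5 CPM (lowest, median and highest) in WT and 7.76, 87.2 and 734 CPM in K49A libraries. All 4 blood genes that passed the filter had a positive log2 fold change, K49A over WT, where 58.4% of all tested genes did. The median of the 4 was 2.37, and edgeR called 0 of them. The part of these other cell types in the results was not tested.

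Initiation is the step that places a ribosome at the start codon of an mRNA. In the usual order, eIF2 brings the initiator tRNA to the small ribosomal subunit, where eIF1, eIF1A, eIF3 and eIF5 also bind. The cap-binding factor eIF4E, the scaffold eIF4G and the helicase eIF4A recruit the mRNA, and eIF5B helps the large subunit to join. The supply of active eIF2 is set by the exchange factor eIF2B and by kinases that phosphorylate eIF2, and eIF4E is held back by 4E-binding proteins. The 2-cell mouse embryo still translates mRNA stored by the oocyte while its own genome is being switched on.

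The mRNA of the initiation factors was unevenly spread over the genes. Levels of different genes are given as TPM, a share of all transcripts that corrects for transcript length. Over the 29 embryos 3 genes had a median of at least 1000 TPM, 10 lay between 100 and 1000, 31 between 10 and 100, 8 between 1 and 10 and 4 under 1. Eif1, Eif5a and Eif4e1b together held a median of 55.9% of the summed TPM of all 56 genes, with a range of 30.3% to 69.2% over embryos. The 56 genes held a median of 1.19% of all TPM of an embryo. In the plot of TPM by gene the ranges of WT and K49A embryos overlap for all 56 genes. Such overlaps were not counted over all genes, so this does not set the initiation factors apart.

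**Figure D1:**
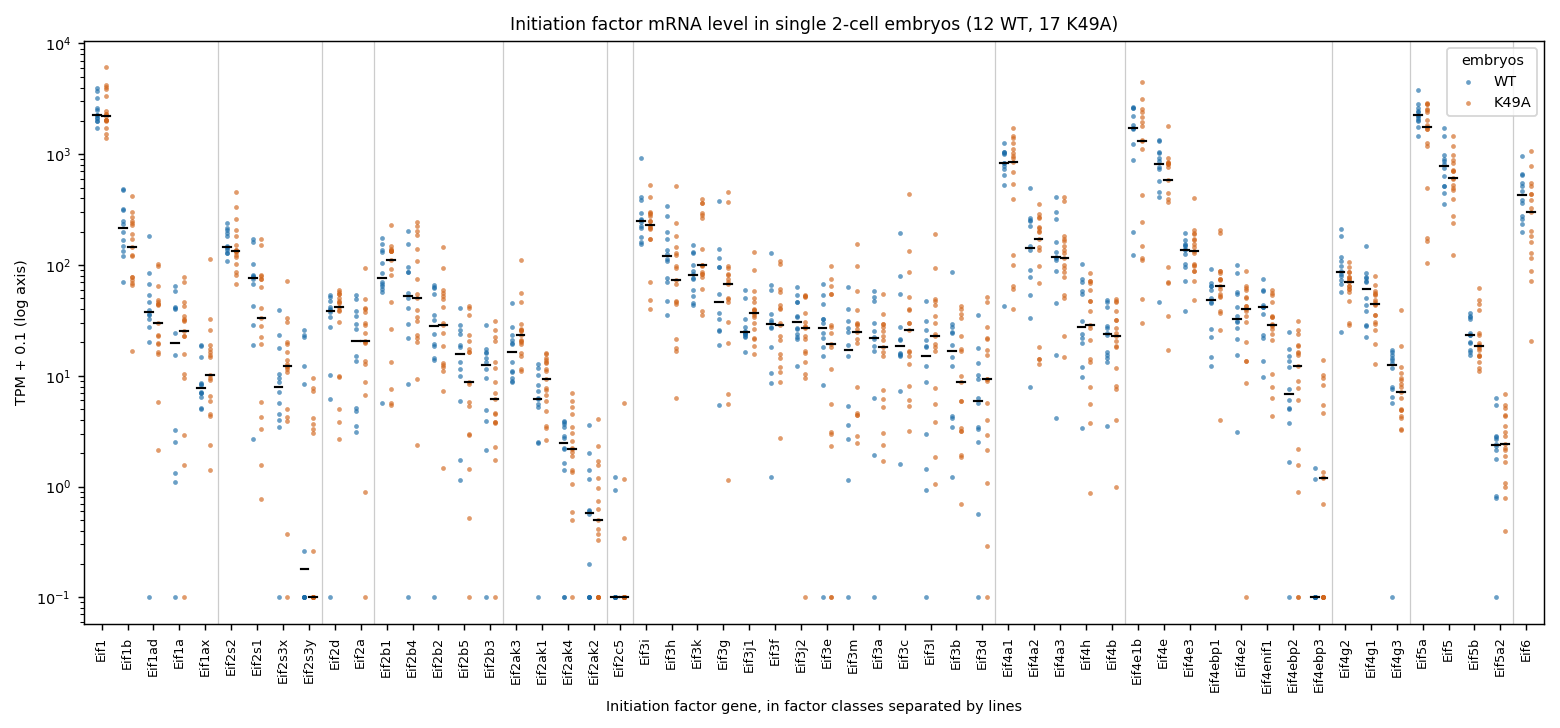
TPM of each of the 56 initiation factor genes (y, TPM plus 0.1, log axis) in 12 WT and 17 K49A embryos, with genes sorted by median within each factor class; points are embryos and black lines group medians. Eif1, Eif5a and Eif4e1b stand highest, and points on the lowest level are embryos with 0 TPM.

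Among the factors that open the small subunit for scanning, Eif1, which guards the choice of start codon, was the most abundant of all 56 genes. Its TPM was 1738, 2249 and 4002 (lowest, median and highest) in WT and 1397, 2195 and 6101 in K49A embryos. Its close relative Eif1b lay at 70.1, 217 and 482 TPM in WT and 16.6, 144 and 421 TPM in K49A embryos. Every embryo therefore had far more Eif1 than Eif1b, and the groups overlapped for both genes. The genes for eIF1A, the partner of eIF1 in scanning, were low, with a median of 24.45 TPM for Eif1a and 8.42 TPM for the X-linked Eif1ax. Eif1ad, a gene of the eIF1A domain family, had a median of 35.9 TPM.

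The subunits of eIF2 differed widely in level. Eif2s2, the beta subunit, had 108, 146 and 238 TPM in WT and 67.6, 134 and 457 TPM in K49A embryos. Eif2s1, the alpha subunit that the stress kinases phosphorylate, ran from 2.56 over 76.4 to 172 TPM in WT and from 0.67 over 32.9 to 172 TPM in K49A embryos. Eif2s2 was thus present at a narrow range and Eif2s1 at a broad one. Eif2s3x, the X-linked gamma subunit, had a median of 10.7 TPM. Of the 5 subunit genes of the exchange factor eIF2B, Eif2b1 was highest with a median of 91.8 TPM and Eif2b3 lowest with 8.74 TPM. Eif2a and Eif2d, factors that can deliver initiator tRNA without eIF2, had medians of 20.3 and 39.25 TPM.

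All 4 eIF2 kinase genes were low. Eif2ak3, the kinase PERK that senses unfolded protein in the endoplasmic reticulum, had a median of 20.7 TPM and Eif2ak1, the heme-regulated kinase, 7.37 TPM. Eif2ak4, the amino acid sensor GCN2, had a median of 2.11 TPM. Eif2ak2, the double-stranded RNA sensor PKR, had 0.46 TPM, a count in 20 of 29 libraries and too few counts for a test. Also untested were Eif2s3y, Eif4ebp3 and Eif2c5, a long non-coding RNA gene by the GENCODE annotation that had a count in 5 of 29 libraries.

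The 14 genes of eIF3, the large complex that bridges the ribosome and the mRNA, summed to a median of 785 TPM; Eif4e alone had 763 TPM. Eif3i was highest with 156, 249 and 924 TPM in WT and 40.3, 228 and 522 TPM in K49A embryos. Eif3d, the subunit that can itself bind the cap of some mRNAs, was lowest with a median of 8.81 TPM. Transcripts for parts of a single complex therefore differed widely in level. Eif5a, the factor that carries hypusine and helps both elongation and termination, lay at 1465, 2246 and 3809.5 TPM in WT and 105, 1774 and 2893 TPM in K49A embryos. Eif5, the GTPase activator of eIF2, had a median of 703 TPM, and Eif5b, the GTPase for subunit joining, 19.7 TPM. Eif6, which keeps the large subunit apart from the small one, had 427 TPM as the WT median and 302 TPM as the K49A median.

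Within gene families 1 copy usually stood above the others, and 12 pairs fixed by gene name were compared inside each embryo on the log2(TPM + 1) scale. Each pair was tested by a 2-sided sign-flip permutation test over the 29 embryos with 100000 resamples, adjusted over the 12 pairs; the smallest p these resamples give is 1e-05 before and 1.71e-05 after adjustment. Of the 12 pairs, 10 differed and 2 did not pass. The 10 include Eif2s3x and the Y-linked Eif2s3y, whose result also depends on how many embryos had Eif2s3y counts. Levels of members of a pair also depend on how reads of similar copies were shared out by the authors' counting.

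Eif4e1b, an eIF4E relative made mainly in oocytes and early embryos, had 124, 1728 and 2651 TPM in WT and 29.8, 1319 and 4479 TPM in K49A embryos. Eif4e, the general cap-binding factor, had 46.2, 814 and 1347 TPM in WT and 16.9, 581 and 1786 TPM in K49A embryos. Eif4e1b was above Eif4e in 23 of 29 embryos, by a mean of 0.94 ± 1.32 on the log2 scale (SD, n = 29; permutation test, adjusted p = 0.00119). The difference was 0.93 in WT and 0.95 in K49A embryos alone. Eif4e2, a relative that represses translation when it binds the cap, was below Eif4e in all 29 embryos, with a difference of -3.81 ± 1.68 (SD; adjusted p = 1.71e-05, permutation test over 29 embryos). Eif4e3 had a median of 135 TPM and Eif4enif1, the protein that carries eIF4E into the nucleus, 33.8 TPM.

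Of the helicases, Eif4a1 stood above Eif4a2 in 28 of 29 embryos and above Eif4a3, the exon junction member of the family, in 27. The mean differences were 2.29 ± 1.37 and 2.43 ± 1.85 on the log2 scale (SD; adjusted p = 1.71e-05 for each, permutation test over 29 embryos). Eif4a1 itself had 42.5, 834 and 1256 TPM in WT and 39.8, 852 and 1717 TPM in K49A embryos. It was at most 123 TPM in WT 19 and K49A 3, 8, 14, 15 and 22, and at least 398 TPM in every other embryo. Eif4e was at most 95.9 TPM in the same embryos and at least 370 TPM in the others. WT 19, K49A 8 and K49A 15 of this set are deep. Among the scaffolds, Eif4g2, which lacks the eIF4E-binding part, exceeded Eif4g1 in 24 of 29 embryos by 0.69 ± 0.85 (SD; adjusted p = 0.00015, permutation test over 29 embryos). Eif4g3 was below Eif4g1 in all 29 embryos, with a difference of -2.36 ± 1.16. Eif5a exceeded Eif5a2 in all 29 embryos by 8.90 ± 1.29, the widest of the 12 differences, and Eif1b was below Eif1 in all 29, with a difference of -3.94 ± 1.04. Of the 4E-binding proteins, Eif4ebp2 was below Eif4ebp1 in 28 of 29 embryos, with a difference of -2.68 ± 1.82 (adjusted p = 1.71e-05 for each of the last 4 pairs, permutation test over 29 embryos).

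Eif3j1 and Eif3j2 had medians of 29.8 and 26.9 TPM and a mean difference of 0.40 ± 1.54 (SD, n = 29; permutation test, adjusted p = 0.207). Eif1ax was above Eif1a in 10 and below it in 19 of 29 embryos, with a mean difference of -0.49 ± 2.32 (SD, n = 29; permutation test, adjusted p = 0.261). In the 24 deep libraries alone the latter difference was -1.01, with an adjusted p of 0.0123 by the same permutation test. Neither order of Eif1a and Eif1ax held in all embryos.

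Eif1a has a set of near copies that the counting treats as genes of their own, and their transcripts were more abundant than Eif1a. Of the 9 eIF1A-like genes looked at, 8 aligned to the whole 432-base coding sequence of Eif1a in the GENCODE M21 transcripts and Gm2056 to 431 bases, at 93.8% to 95.1% identity. Eif1ax aligned at 85.6%. The summed TPM of the 9 was 25.1, 419 and 1993 in WT and 4.11, 513 and 1910.3 in K49A embryos. It was above the TPM of Eif1a in all 29 embryos, and above Eif1a and Eif1ax together in 27. The group ranges of the sum overlapped almost fully. By gene, Gm2022, Gm2056 and Gm2035 had medians of 9.51, 14.2 and 5.71 TPM, below the 24.45 TPM of Eif1a. The others had medians from 24.74 TPM (Gm2075) to 127.2 TPM (Gm5662). In CPM, which has no correction for length, Gm2075 had a median of 2.92 and at most 31.1, with a count in 22 of 29 libraries. Eif1a reached 132 CPM. Reads that match several of these genes cannot be placed with certainty, so the values of Eif1a and of each copy are uncertain.

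The comparison of K49A with WT embryos asked whether the substitution in protamine 1 goes with other initiation factor mRNA levels at this stage. None of the 52 tested genes passed the threshold of 0.05 after Benjamini-Hochberg adjustment over 12456 genes by the quasi-likelihood test of edgeR, with 0.453 as the lowest adjusted p among them. Over all genes the same test called 0.0161% (2 of 12456, both lower in K49A). DESeq2 called 0.725% of the genes it adjusted and limma with quality weights 0.321% of all tested, in both cases with 0 of the 52. In the deep libraries edgeR called 0 of 53, beside 0.0312% of all genes. At an unadjusted p under 0.05 edgeR had 2 of the 52, or 3.85%, against 7.73% of all tested genes.

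The log2 fold changes of the 52, K49A over WT, ran from -0.63 for Eif2s1 to 1.33 for Eif3k. Of the 52, 23 lay above 0, or 44.2%, and 29 below, where 58.4% of all tested genes lay above 0. The median of the 52 was -0.04, beside a median of 0.11 over all tested genes. The median standard error of the fold change was 0.43 for the 52 genes and 0.51 for all. It measures the uncertainty of the group difference and not the spread between embryos. In simulated data with these libraries, edgeR recovered 2 of 50 genes changed by a factor of 2, and 41 of 50 changed by a factor of 8. By class the median fold change ran from -0.35 for the 3 eIF4G genes to 0.44 for the 3 tested eIF2 kinases.

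The 2 genes with an unadjusted p under 0.05 were both eIF3 subunits. Eif3k had 16.1, 32.5 and 119 CPM (counts scaled to a common library size) in WT and 16.8, 36.7 and 435 CPM in K49A libraries. Its 4 highest values, 435, 373, 254 and 223 CPM, came from K49A 3, 14, 8 and 22. Of these, K49A 3, 14 and 22 are the 3 K49A libraries that are not deep. K49A 8 is deep, and the next values, 134, 129 and 119 CPM, came from the deep libraries K49A 15, K49A 23 and WT 19. WT 10, which is not deep, had the lowest WT value. The log2 fold change was 1.33 ± 0.51 (SE; edgeR, adjusted p = 0.453) and 0.52 in the deep libraries. Eif3j1, the loosely held subunit that helps recycle ribosomes, had 83.5, 133 and 279 CPM in WT and 77.5, 159 and 794 CPM in K49A libraries. Its log2 fold change was 0.82 ± 0.36 (SE; edgeR, adjusted p = 0.551) and 0.26 in the deep libraries. Its 3 highest values, 794, 701 and 554 CPM, also came from these 3 shallower K49A libraries.

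**Figure D2:**
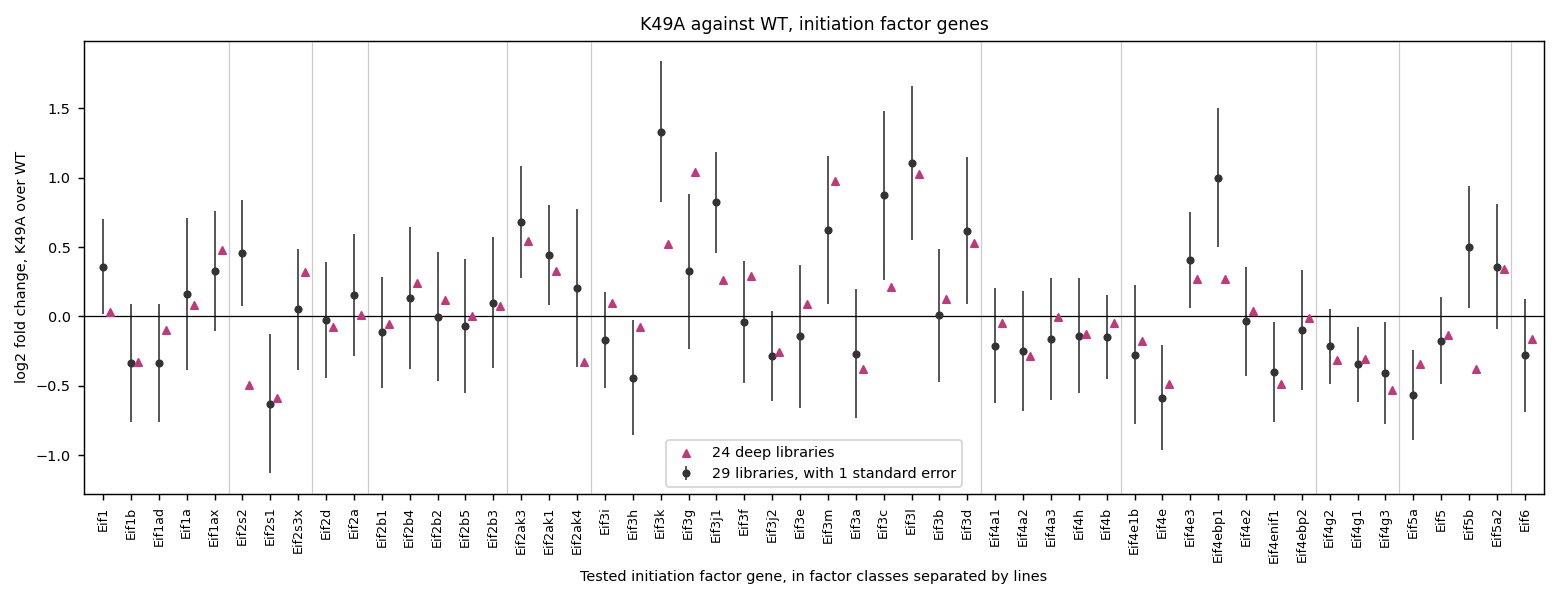
Log2 fold change, K49A over WT (y), of the 52 tested initiation factor genes sorted by class; circles with bars of 1 standard error use 29 libraries and triangles the 24 deep libraries. Eif3k at 1.33 is the highest circle and lies at 0.52 in the deep libraries.

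None of the remaining genes named for a low p in their class was called. Eif2ak3 had a log2 fold change of 0.68 ± 0.41 (SE; edgeR, adjusted p = 0.768), with 20.98 CPM as the WT and 23.9 CPM as the K49A median. Eif4ebp1, the 4E-binding protein that mTORC1 phosphorylates, had 1.00 ± 0.50 (adjusted p = 0.656, edgeR). Eif4e had -0.59 ± 0.38, with medians of 996 CPM (WT) and 724 CPM (K49A), and Eif5a had -0.57 ± 0.32, with medians of 2239 CPM (WT) and 1587 CPM (K49A); their adjusted p by edgeR were 0.805 and 0.733. Eif2s1 had -0.63 ± 0.50, and Eif4g1, Eif4g2 and Eif4g3 had -0.35, -0.22 and -0.41. The groups overlapped for each of these genes. Eif2s2 had 0.46 ± 0.38 in all libraries but -0.50 in the deep ones (edgeR, unadjusted p = 0.0486). Its direction thus differed between all and deep libraries, as did that of Eif5b, with 0.50 and -0.38.

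Eif4ebp3, a 4E-binding protein gene with few counts, was left out by the count filter. It had a count in 2 of 12 WT libraries, with at most 0.528 CPM, and in 10 of 17 K49A libraries, with at most 17.02 CPM. Without the filter edgeR called it higher in K49A (adjusted p = 0.0396), in a fit that called 2.14% of 30892 genes higher and 3.64% in either direction. Its 4 highest values, 17.02, 11.9, 8.25 and 7.79 CPM, came from K49A 3, 14, 22 and 15, the first 3 being those that are not deep.

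Eif2s3y, the Y-linked copy of the eIF2 gamma subunit gene, split the embryos within each group. It had 0 counts in 6 of 12 WT and 9 of 17 K49A libraries, 1 or 2 counts in 3, and 7 to 154 counts in 11. The 11 were 5 WT and 6 K49A embryos. In 9 of the 11, the summed counts of the Y-linked genes Ddx3y, Kdm5d and Uty were also at least 5. In all 18 embryos with fewer than 5 counts of Eif2s3y that sum was at most 4. The X-linked Eif2s3x had a count in 27 of 29 libraries and exceeded Eif2s3y in 21 embryos, with Eif2s3y the higher in 6 (mean difference 1.94 ± 2.43 on the log2 scale; permutation test, adjusted p = 0.00048, n = 29). In WT embryos alone Eif2s3x was higher in 6 and Eif2s3y in 5 (permutation test, adjusted p = 0.143), and in K49A embryos Eif2s3x was higher in 15 and Eif2s3y in 1 (permutation test, adjusted p = 0.00114). An embryo with 0 counts of Eif2s3y cannot have Eif2s3y as the higher, so these results also depend on how many embryos had Eif2s3y counts. In the 14 libraries with both genes above 0 the mean difference was 0.49 (permutation test, adjusted p = 0.436). The difference between the groups in this order was not tested. Among deep libraries Eif2s3y had a log2 fold change of -2.29 (edgeR, adjusted p = 0.948).

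**Figure D3:**
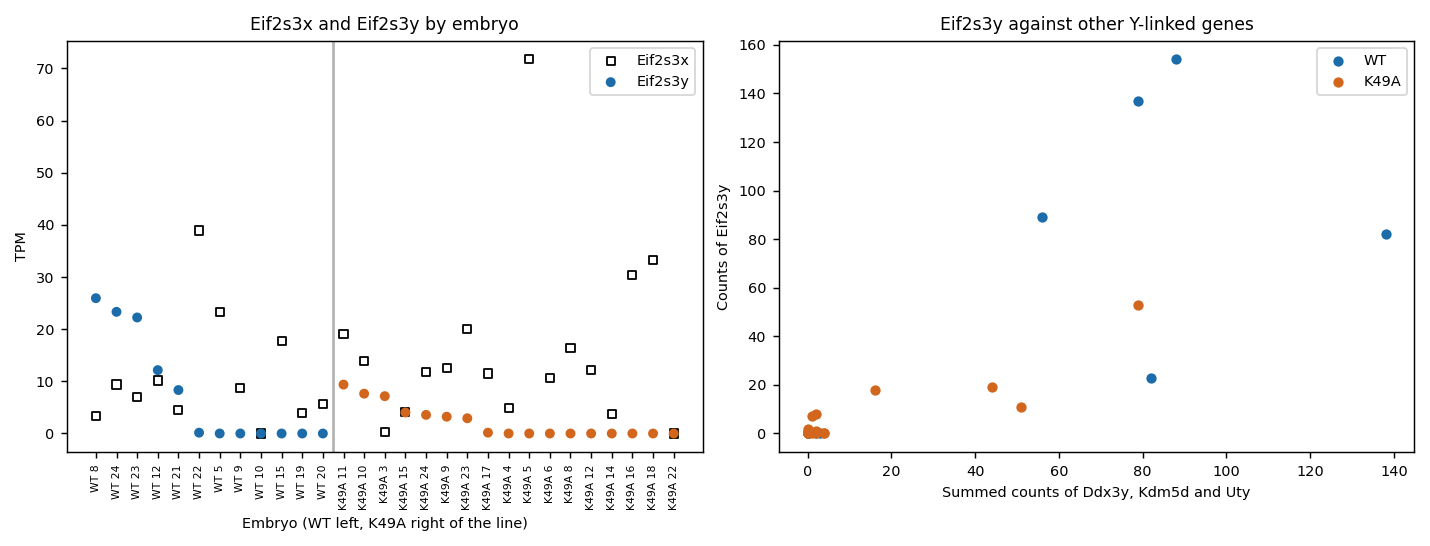
Left, TPM (y) of the X-linked Eif2s3x (open squares) and the Y-linked Eif2s3y (filled circles) in each embryo (x), sorted by Eif2s3y within WT and K49A; right, counts of Eif2s3y against the summed counts of 3 other Y-linked genes, 1 point per embryo. Eif2s3y is at 0 in 6 WT and 9 K49A embryos, and high values go with high counts of the other Y-linked genes.

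Embryos varied widely within both groups, and this variation was set against 2 levels measured in each embryo after these data had been seen. The 2-cell marker level is the mean log2(CPM + 1) of 5 marker genes of the 2-cell stage (Zscan4c, Zscan4d, Zfp352, Tcstv3 and Spz1). The oocyte marker level is the same over 6 oocyte genes (Zp3, Gdf9, Ooep, Nlrp5, Dppa3 and Oosp1). The 2-cell level was 2.81, 6.64 and 7.62 in WT and 1.93, 5.48 and 6.97 in K49A embryos, and the oocyte level 6.55, 7.47 and 8.39 in WT and 6.60, 7.55 and 9.02 in K49A embryos. Slopes below are changes in log2 level of a gene per unit of marker level, from edgeR with the group in the fit and adjustment over 12456 genes. Not every marker was called as rising with the level it is part of. Zscan4c, Zscan4d and Zfp352 were, and Tcstv3 and Spz1 were not. Of the oocyte genes Dppa3, Nlrp5, Ooep and Oosp1 were, and Zp3 and Gdf9 were not. With the log10 total count in the fit Zfp352 and Nlrp5 lost these calls.

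The marker levels were themselves related, and related to depth. Of the blood markers, Hba-a1 and Hba-a2 fell with the 2-cell level and rose with the oocyte level (4 of 7 tested), and of the cumulus markers Amhr2 rose with the 2-cell level (3 of 12 tested); their part in the slopes was not tested. Of 5 relations computed in this family, the 2-cell level correlated with the log10 total count at r = 0.686 and rho = 0.479 (permutation test, n = 29, p = 0.00013 and 0.00903, adjusted 0.00065 and 0.0113), and at r = 0.509 without the 2 libraries whose log10 total lay farthest from the median. In the deep libraries it was r = 0.213. The oocyte level correlated with the log10 total count at r = -0.406 and rho = -0.457 (permutation test, p = 0.0289 and 0.0137, adjusted 0.0289 and 0.0137) and at r = -0.361 without the same 2 libraries (permutation p = 0.0636). In the deep libraries it was r = -0.634, within WT libraries -0.166 and within K49A libraries -0.504. The levels correlated with each other at r = -0.464 and rho = -0.497 (permutation test, p = 0.011 and 0.0068, adjusted 0.0137 and 0.0113), and at r = -0.484 without the 2 embryos whose oocyte level lay farthest from the median. Within plate columns 3 to 6, which held 6 libraries each, that r was -0.429, -0.643, -0.169 and -0.457. The r of the 2-cell level with the total count was 0.488 to 0.703 in these columns, and that of the oocyte level -0.345, -0.432, -0.8 and 0.0116.

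With the 2-cell level 11 of the 52 genes rose, or 21.2%, where 10.6% of all tested genes rose, and 2 fell, or 3.85%, where 4.87% of all fell. The 11 were the helicase genes Eif4a2 and Eif4a3 and their cofactor Eif4h, the eIF3 subunits Eif3d, Eif3h and Eif3l, the eIF2B subunits Eif2b2 and Eif2b4, and Eif1a, Eif2a and Eif2s1. Eif4h had the lowest adjusted p: 0.58 ± 0.13 (SE; edgeR, adjusted p = 0.0018), with 12.6, 50.6 and 190.2 CPM in WT and 3.97, 61.6 and 169.8 CPM in K49A libraries. Its lowest value was in K49A 14, with a 2-cell level of 3.41, and its highest in WT 22, with a level of 7.25. The steepest slopes were those of Eif1a, 0.84 ± 0.19 (edgeR, adjusted p = 0.0022), and Eif2b4, 0.80 ± 0.18 (edgeR, adjusted p = 0.0026). The 2 genes that fell were Eif5b, with a slope of -0.48 ± 0.14, and Eif2s2, with -0.34 ± 0.12.

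Depth and plate column moved with these calls. With the log10 total count in the fit 1 gene rose (Eif2b4, slope 0.94; edgeR, adjusted p = 0.0429) and 0 fell, where 1.79% of all genes rose and 0.0723% fell; at an unadjusted p under 0.05 there were 17 of the 52, where 19.6% of all genes passed. With plate column as a factor 3 rose (Eif1a, Eif4a2 and Eif4h) and 0 fell, where 4.42% of all rose and 1.67% fell. In the deep libraries 4 rose (Eif2a, Eif2b4, Eif4a3 and Eif4h), and Eif4e3 fell, where 5.02% of all rose and 1.95% fell. With at least 500000 counts a library 5 rose, where 6.39% of all did. With RLE size factors 5 fell, where 6.72% of all did, and without the count filter 1 fell, where 4.76% did. Within WT libraries alone 3 of 30 tested rose and 1 fell (1.85% and 2.63% of all), and within K49A libraries alone 5 of 51 rose and 3 fell (6.2% and 6.64% of all). The slope of Eif4h was 0.73 in the deep libraries, 0.56 with the total count, 0.61 with plate column, 0.67 within WT and 0.47 within K49A libraries. That of Eif2s2 was 0.04 in the deep libraries and 0.18 with the total count, and that of Eif5b was -0.26 in the deep libraries.

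With the oocyte level 7 of the 52 genes rose, or 13.5%, beside 9.43% of all tested genes, and 9 fell, or 17.3%, beside 7.88% of all. The 7 were Eif1, Eif1b and Eif1ax of the eIF1 class, the eIF3 subunits Eif3i and Eif3k, the cap-binding relative Eif4e3, and Eif5b. Eif1b was steepest at 1.46 ± 0.23 (SE; edgeR, adjusted p = 1.73e-05), with 54.3, 143 and 703 CPM in WT and 31.8, 112 and 628 CPM in K49A libraries. Its 3 highest embryos, WT 19, K49A 8 and K49A 15, also had oocyte levels of 8.39, 8.53 and 9.02. Eif1ax had a slope of 1.00 ± 0.25 and Eif1 of 0.98 ± 0.22 (edgeR, adjusted p = 0.00477 and 0.00144).

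The 9 genes that fell were Eif2s1, Eif2a, Eif2b5, Eif3b, Eif3d, Eif3e, Eif4a2, Eif4e and Eif4h. Eif2s1 was steepest at -1.85 ± 0.40 (SE; edgeR, adjusted p = 0.00099), with 2.80, 162 and 380.3 CPM in WT and 2.43, 70.5 and 358 CPM in K49A libraries. The 5 embryos with the lowest Eif2s1 were WT 19 and K49A 3, 22, 8 and 15, at 2.80, 2.43, 8.25, 10.8 and 18.8 CPM, and their oocyte levels, 8.39, 8.26, 8.50, 8.53 and 9.02, were the 5 highest. Eif3e and Eif2a followed with -1.53 ± 0.44 and -1.50 ± 0.36 (edgeR, adjusted p = 0.013 and 0.0029). Eif4e fell with -1.02 ± 0.31 (edgeR, adjusted p = 0.021), while Eif4e1b, the form made in oocytes, had -0.45 ± 0.57 (edgeR, adjusted p = 0.64).

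**Figure D4:**
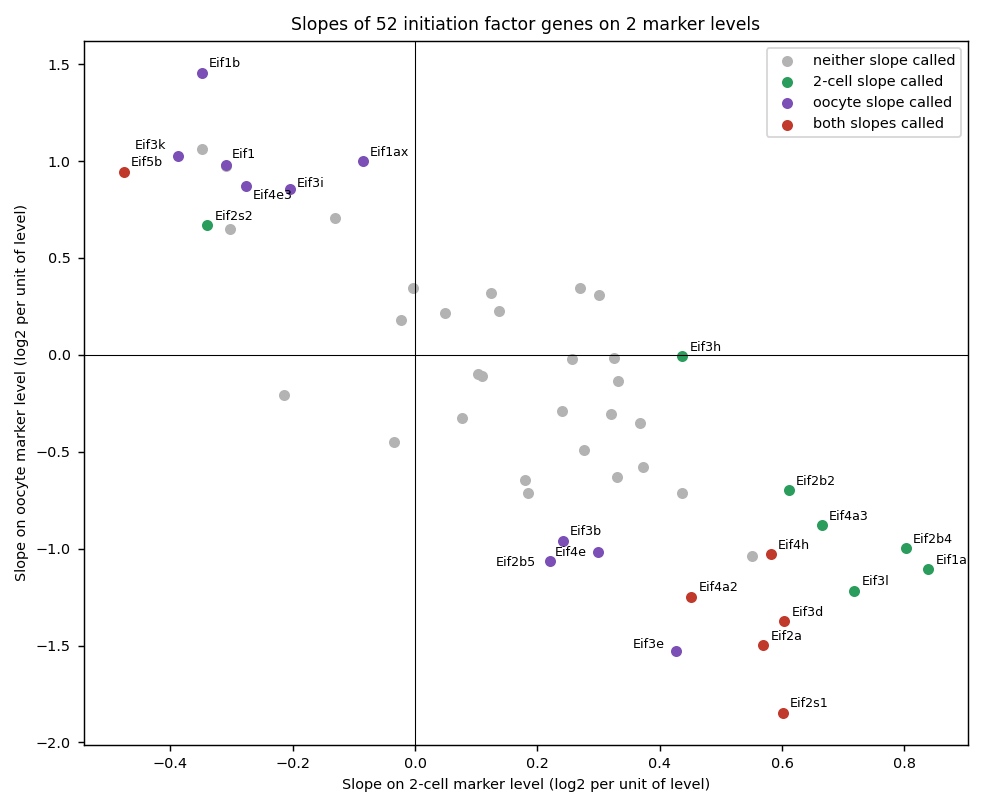
Slope of each of the 52 tested initiation factor genes on the 2-cell marker level (x) and on the oocyte marker level (y), in log2 units per unit of level, coloured by which slope passed an adjusted p of 0.05. Eif2s1, Eif2a, Eif3d, Eif4a2 and Eif4h lie at the lower right with both called, and Eif5b at the upper left.

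In the 24 deep libraries 8 rose and 12 fell with the oocyte level, where 12.2% of all genes rose and 8.98% fell. With the log10 total count in the fit 6 rose and 3 fell, where 7.84% and 3.28% of all did. With plate column as a factor 1 rose (Eif1b) and 2 fell (Eif2b5 and Eif2s1), where 3.04% and 2.71% of all did. Within WT libraries 2 rose and 1 fell (7.62% and 3.82% of all), and within K49A libraries 5 rose and 10 fell (9.97% and 7.89% of all). Eif1b kept a slope of 1.59 in the deep libraries, 1.42 with the total count, 1.44 with plate column, 1.19 within WT and 1.61 within K49A libraries, each with an adjusted p under 0.05 in edgeR. Eif2s1 had -1.67, -1.44 and -1.65 in the first 3 of these fits, and -2.10 within K49A libraries, and was not tested within WT libraries, where the filter left 3844 genes.

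**Figure D5:**
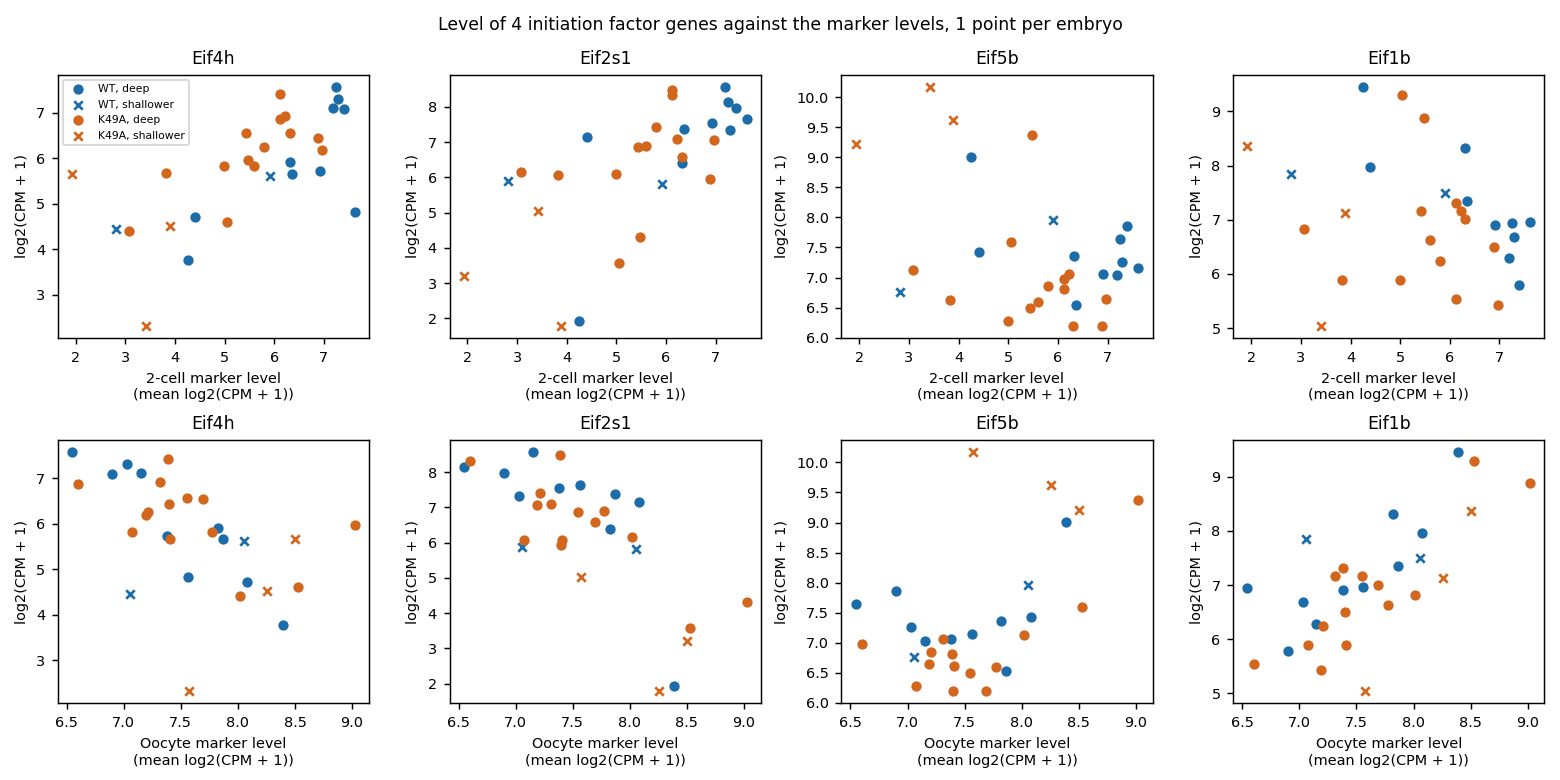
Log2(CPM + 1) of Eif4h, Eif2s1, Eif5b and Eif1b (y) against the 2-cell marker level (top row, x) and the oocyte marker level (bottom row, x) in 12 WT and 17 K49A embryos; crosses are the 5 libraries that are not deep. Eif1b is higher and Eif2s1 lower in embryos with a higher oocyte level, and the highest Eif5b values include all 3 shallower K49A libraries.

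The difference between the genes for eIF1A was also set against the marker levels. Eif1a was already called with the 2-cell level and Eif1ax with the oocyte level in the same libraries. The correlations below therefore restate those slopes and are not a new test, and they were not adjusted for depth. The log2 difference Eif1a minus Eif1ax correlated with the oocyte level at r = -0.595 and rho = -0.61 (permutation test, n = 29, p = 0.00072 and 0.00062, adjusted over the 5 relations 0.00158 and 0.0021), and at r = -0.632 without the 2 embryos whose oocyte level lay farthest from the median. It was -0.619 within WT, -0.619 within K49A and -0.647 within the deep libraries, and -0.495, -0.666, -0.679 and 0.126 within plate columns 3, 4, 5 and 6. Against the 2-cell level r was 0.582 and rho 0.594 (permutation test, p = 0.00095 and 0.00084, adjusted 0.00158 and 0.0021), and r was 0.339 without the 2 embryos farthest from the median 2-cell level (permutation p = 0.0824), so that the call over all embryos was lost without them. These 2 embryos, WT 10 and K49A 22, were not deep and had 0 TPM of Eif1a. The r with the 2-cell level was 0.674 within WT and 0.622 within K49A libraries, and 0.432 in the deep libraries. Within plate columns 3, 4, 5 and 6 it was 0.395, 0.782, 0.499 and 0.764.

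Both slopes were called for 6 genes, and the signs were opposite in each. Eif2s1, Eif2a, Eif3d, Eif4a2 and Eif4h rose with the 2-cell level and fell with the oocyte level, and Eif5b did the reverse. Of the 52 genes, 7 had slopes of the same sign on both levels. The same counts were not made over all tested genes, so they do not set the initiation factors apart. Since both levels come from the same libraries and are inversely related, the slopes are not independent. With both levels in a single fit 5 genes rose with the 2-cell level (Eif1a, Eif2b4, Eif3h, Eif4a3 and Eif4h) and 0 fell, where 4.71% of all rose and 1.62% fell. In that fit 4 rose with the oocyte level (Eif1, Eif1ax, Eif1b and Eif3i) and Eif2s1 fell, where 6.87% of all rose and 2.59% fell.

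Upstream sequences are shown for 3 genes that rose with the 2-cell level (Eif2a, Eif3d and Eif2b2) and 3 that rose with the oocyte level (Eif5b, Eif3k and Eif1ax) as examples of genes called on each level. Eif2a, Eif3d and Eif5b had both slopes called, with opposite signs, while Eif2b2 was not called on the oocyte level, nor Eif3k and Eif1ax on the 2-cell level. For each, RefSeq (GRCm38.p6) gives a single start that lies at or before the GENCODE gene start. Each is the 120 bases before that start, 5′ to 3′ on the strand of the gene. All 6 were chosen after their values were seen. With the log10 total count in the fit, Eif2a, Eif3d and Eif2b2 were not called on the 2-cell level. In that fit Eif1ax kept its call on the oocyte level, and Eif5b and Eif3k did not. In the deep libraries Eif2a kept its call on the 2-cell level, and Eif5b and Eif1ax on the oocyte level. Eif3d, Eif2b2 and Eif3k lost these calls there. Capitals mark matches, on either strand, to the GC box GGGCGG, the CCAAT box CCAAT, the TATA box TATAAA, the E-box CACGTG or the ETS motif CCGGAAG.
Eif2a (chr3:58525701-58525820, plus strand): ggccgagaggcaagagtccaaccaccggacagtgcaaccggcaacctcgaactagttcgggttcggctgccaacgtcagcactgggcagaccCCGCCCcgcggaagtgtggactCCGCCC
Eif3d (chr15:77970825-77970944, minus strand): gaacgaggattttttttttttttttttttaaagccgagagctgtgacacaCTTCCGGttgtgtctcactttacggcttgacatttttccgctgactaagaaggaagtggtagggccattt
Eif2b2 (chr12:85219361-85219480, plus strand): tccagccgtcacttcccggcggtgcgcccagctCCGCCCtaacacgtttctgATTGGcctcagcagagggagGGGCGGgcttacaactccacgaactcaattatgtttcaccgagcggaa
Eif5b (chr1:37997890-37998009, plus strand): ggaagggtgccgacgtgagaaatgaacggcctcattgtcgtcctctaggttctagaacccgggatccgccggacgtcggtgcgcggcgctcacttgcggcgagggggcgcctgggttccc
Eif3k (chr7:28981889-28982008, minus strand): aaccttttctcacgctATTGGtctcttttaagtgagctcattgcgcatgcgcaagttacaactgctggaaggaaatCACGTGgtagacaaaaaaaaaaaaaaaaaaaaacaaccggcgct
Eif1ax (chrX:159372058-159372177, plus strand): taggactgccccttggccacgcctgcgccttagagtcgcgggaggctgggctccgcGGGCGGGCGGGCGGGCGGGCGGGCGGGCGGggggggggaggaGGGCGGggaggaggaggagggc

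Of these 120 bases, those of Eif2a and Eif2b2 held 2 GC boxes each, and those of Eif2b2 also a CCAAT box. Those of Eif1ax held 8 GC boxes, all but 1 of them overlapping in a single run. Those of Eif3d held an ETS motif, those of Eif3k a CCAAT box and an E-box, and those of Eif5b none of the 5 motifs. RefSeq windows were found for 44 of the 56 genes, of which 38 had a single window. In the 250 bases before the start, 73.7% of the 38 held a GC box, beside 32.7% of all 32851 RefSeq windows, which include several windows for some genes and non-coding genes. The shares were 26.3% and 6.91% for the ETS motif, 18.4% and 6.02% for the E-box, 28.9% and 33.8% for the CCAAT box and 10.5% and 12.4% for the TATA box. A match is a match of letters and was not tested for binding.

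The other genes of translation were followed in 4 lists, and none of their genes was called between K49A and WT by edgeR. Of the 16 elongation and termination genes, all tested, 12 had a positive log2 fold change, where 58.4% of all tested genes did. Eef1b2, a subunit that reloads the elongation factor with GTP, had 0.72 ± 0.40 (SE), and Etf1, the release factor, had 0.63 ± 0.31 (edgeR, adjusted p = 0.711 and 0.637). Eef2, the translocase, rose with the 2-cell level (slope 0.40) and fell with the oocyte level (-0.80). Eef1b2 and Gspt2, a release factor GTPase, rose with the oocyte level (1.13 and 1.26), and Eef1a1, Eef2 and Etf1 fell. Of all tested genes 9.43% rose and 7.88% fell with that level. With the log10 total count in the fit Eef1b2, Gspt2 and Etf1 kept the call, where 7.84% of all rose and 3.28% fell. With plate column as a factor Eef1b2 and Gspt2 alone kept it, where 3.04% of all rose and 2.71% fell.

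Of 19 other helpers of initiation 18 were tested, and the smallest p in the group comparison were those of Paip2, a repressor of poly(A)-binding protein, at 0.51 ± 0.29 (SE), and Paip1, its activating counterpart, at -0.79 ± 0.46 (edgeR, adjusted p = 0.735 and 0.758). Pabpc1, the poly(A)-binding protein, rose with the 2-cell level (0.68) and fell with the oocyte level (-1.25), and Mknk2, a kinase of eIF4E, rose with the 2-cell level (0.51). With the log10 total count in the fit, Eef2, Pabpc1 and Mknk2 were not called with the 2-cell level. With plate column as a factor Eef2 and Pabpc1 were called with the 2-cell level and Mknk2 was not. On the oocyte level Pabpc1 was called with the total count in the fit but not with plate column. Of 19 genes of mTORC1 signalling and the stress response 18 were tested, with Trib3 at -0.84 ± 0.53 (SE) and Rheb at -0.50 ± 0.36 (edgeR, adjusted p = 0.803 and 0.846). With the 2-cell level 6 of the 18 rose, where 10.6% of all tested genes did: Atf4, Ddit4, Ppp1r15a, Rps6kb2, Sesn2 and Trib3. With the log10 total count in the fit Sesn2 alone of the 18 was called (1.79% of all rose), and with plate column 4 were, Ddit4, Mtor, Ppp1r15a and Sesn2 (4.42% of all). Atf4 is the transcription factor whose translation rises when eIF2 is phosphorylated, and Ppp1r15a restores eIF2 by dephosphorylation. With the oocyte level Ddit3 rose (1.31) and Ddit4, Rps6kb2 and Trib3 fell, where 9.43% of all tested genes rose and 7.88% fell. With the total count in the fit all of these but Ddit4 kept the call (7.84% of all rose and 3.28% fell). With plate column Rps6kb2 and Trib3 alone kept it (3.04% of all rose and 2.71% fell). Of the 8 tested eIF1A-like genes, Gm2016, Gm2075, Gm5662 and Gm8300 rose with the 2-cell level, with slopes of 1.53, 1.25, 0.90 and 0.68, beside the same 10.6% of all genes, and none was called with the oocyte level. Gm2016, Gm2075 and Gm5662 were called with the total count in the fit, and Gm2016 alone with plate column.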

How the data were processed

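The members and lists were chosen with earlier results of these data known, and the relation to marker levels was added after the data were seen. The submitters' processing notes name RSEM 1.3.3, STAR 2.7.8a, FastQC 0.11.8 and cutadapt 2.3 and the builds mm10 and GRCm38; the annotation release and strand use are not given in the sources used here. The authors deposited expected counts per gene, all whole, and TPM; their FPKM file equals the TPM file value for value and was not used. RSEM divides reads among similar genes, so paralogues are uncertain. The 5 transgene entries held 0 counts and were left out.

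Expected counts of libraries with at least 100000 counts were rounded and tested with edgeR 4.0.16 (R 4.3.3; TMM, filterByExpr, robust quasi-likelihood test, Benjamini-Hochberg over 12456 genes, threshold 0.05). DESeq2 1.42.0 and limma 3.58.1 were alternatives, with other filters, library minimums, plate column and leaving out each library. CPM values use TMM-scaled library sizes. Paralogues were compared on log2(TPM + 1). Genes were named by a rule: in each factor class the 2 highest in mean TPM and the 2 with the smallest p, both genes of each pair, and in each list the 2 with the smallest p; genes called for a slope were named too. The tests were checked on simulated data: slopes of 1 were recovered in 44 of 50 genes and slopes of 0.5 in 9 of 50, with 7 false calls among 11697 unchanged genes.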

Additional observations from a re-analysis of the deposited data

How the results depend on the processing

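Leaving out any library or using the other tools and settings left 0 initiation factor genes called between K49A and WT, except that without the low-count filter 1 was higher (Eif4ebp3). Their median log2 fold change ran from -0.14 to 0.05 over the left-out libraries. The labels do not say that the replicate numbers pair the embryos, though equal numbers share a plate column. The correlation of deviations between embryos with the same number ran from -0.275 to 0.216 over 9 shared numbers. Embryos with different numbers were not compared in this way. With a replicate block 0 initiation factor genes were called and their median was 0.06. The 42 genes named in the group comparison, some of them from the other lists, were followed over these settings. All 1218 of their fold changes with a library left out moved by less than 1 standard error of the main fit. Of 420 under other settings, 41 moved by at least that.

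Of the paralogue pairs, Eif1ax minus Eif1a was -0.88 where both were above 0 and -1.01 in deep libraries, now past the threshold. Eif2s3x minus Eif2s3y was 0.49 where both were above 0 and 1.32 in WT embryos, no longer past it. Eif3j1 minus Eif3j2 turned to -0.056 in deep libraries and -0.18 in WT embryos. The cause was not tested.

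The number of genes rising with the 2-cell level was 5 in libraries of at least 500000 counts, 4 in deep ones, 3 with plate column, 1 with the total count, 3 in WT, 5 in K49A and 5 with both levels in 1 fit. The number falling was 5 with RLE size factors, 1 without the filter, 1 in deep libraries, 0 with plate column, 0 with the total count, 1 in WT, 3 in K49A and 0 with both levels. With a library left out, 9 to 13 rose and 0 to 6 fell (0 without WT 19 or K49A 14, 6 without WT 10). The shares of all genes called in these fits are not given here, so the ranges do not set the initiation factors apart. The slope of Eif2s2 turned to 0.044 in deep libraries, 0.18 with the total count and 0.10 in WT, and that of Eif5b to 0.0007956 with the total count.

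The number rising with the oocyte level was 1 with plate column, 2 in WT and 4 with both levels, and the number falling 2 with plate column, 3 with the total count, 1 in WT and 1 with both. With a library left out, 5 to 10 rose (10 without K49A 14) and 5 to 12 fell (5 without K49A 5, 12 without WT 10). For these fits too the shares of all genes are not given here. Fits within 1 group tested fewer genes (3844 in WT, 7440 in K49A). The part of library depth in the slopes of low genes was not tested.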
